A study of Mus musculus with 6 samples.

Results

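The genes of the ATF4-driven integrated stress response and the cytosolic tRNA synthetases were followed in mouse hematopoietic stem cells that had lost Prmt5. They were 42 genes, chosen by symbol and not by their measured values, out of 24110 in the table: 22 integrated stress response genes of amino acid supply and 20 cytosolic tRNA synthetases. All 42 were present, and all were among the 14113 genes tested, those averaging 10 or more scaled counts. Prmt5 KO samples held stem cells of C57BL/6 mice in which the floxed gene had been deleted, and Prmt5 fl/fl samples held stem cells of C57BL/6 mice with the intact floxed gene, matched to them by litter and sex. Both were taken from bone marrow 7 days after induction by a sort for cells without lineage markers or CD48 and with Sca-1 and CD150. There were 3 RNA-seq libraries per genotype, each from the pooled marrow of 2 mice. What induced the deletion, and which cells express the recombinase, is not stated in the labels.

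The integrated stress response begins when a kinase phosphorylates the initiation factor eIF2, for example GCN2 in cells short of an amino acid or PERK in cells with unfolded proteins in the endoplasmic reticulum. General translation then falls while the mRNA of the transcription factor ATF4 is translated more, so much of the control of ATF4 does not show in the level of its mRNA. ATF4 switches on enzymes that make amino acids, transporters that import them, and synthetases that load them onto tRNAs, and it binds a composite site called the C/EBP-ATF response element. Blood stem cells are known to make protein slowly and to be sensitive to changes in that rate. PRMT5 is an arginine methyltransferase whose substrates include proteins of the splicing machinery.

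Reads in genes numbered 37834096 to 41812565 in the Prmt5 KO libraries and 42213314 to 44704636 in the Prmt5 fl/fl libraries. The deposited values are scaled to the common total of 44704636 and are called scaled counts here. Prmt5 itself was at 1056, 1049 and 897 scaled counts in Prmt5 KO libraries, against 6076, 6024 and 6010 in Prmt5 fl/fl libraries, so each library matched its label. Which exons were deleted is not stated in the labels. Genes of the sorting gate (Ly6a for Sca-1, Slamf1 for CD150) and of stem and progenitor cells (Kit, Procr, Mecom, Hlf, Meis1) were present in every library. Cd48 was low, at 492 to 676 scaled counts in Prmt5 KO and 446 to 757 in Prmt5 fl/fl libraries. Procr, Mecom, Meis1 and Flt3 had groups that did not overlap, 2 of them higher and 2 lower in Prmt5 KO. Over all genes tested 8.3% were higher and 19.9% lower in this sense. Limma called 0 of the 10 genes in the stem cell list. Over all genes tested, 103 of 14113 (0.73%) passed the threshold of 0.05 on the adjusted p in limma's moderated test, 39 higher and 64 lower in Prmt5 KO. The direction of those calls depended on the processing. More were higher than lower after TMM scaling (35 and 32), median-of-ratios scaling (35 and 22) and quantile normalization (38 and 26) and in edgeR on the recovered reads (34 and 26). More were lower than higher in DESeq2 (365 higher and 616 lower), with centring by gene length (198 and 241) and without Prmt5 fl/fl replicate 3 (121 and 257). In the paired fit, which takes the replicate number as block, limma called 1 gene.

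A pair of libraries stood apart in ways that touch the members. In Prmt5 fl/fl replicate 3 long genes were low and short genes high: against the other Prmt5 fl/fl libraries the median log2 difference was 0.51 for genes of up to 1000 bases, 0.12 for genes of 2000 to 3000 bases and -0.76 for genes of over 5000 bases, counting only genes that averaged 1000 or more scaled counts. Prmt5 KO replicate 3 was high in granulocyte and monocyte markers, which summed to 106832, 78240 and 737173 scaled counts in Prmt5 KO replicates 1 to 3, against 239887, 93751 and 59841 in Prmt5 fl/fl replicates 1 to 3. In bulk samples fewer cells of a type and less RNA per cell cannot be told apart.

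Matches to the element that ATF4 is known to bind are shown first. They were found by their letters, and binding was not measured. In RefSeq promoter windows of GRCm38.p6, which run from 250 bases before each gene's start to 50 after it, 31 of the 42 members had an entry. Aldh1l2, Cth, Slc7a5, Cars, Lars, Mars, Rars, Vars, Wars, Hars and Nars were not matched. The element was searched as the letters TGATGNAA on both strands. It was in the windows of 12 of the 31 members (38.71%), 7 of 19 stress response genes and 5 of 12 synthetases, against 1219 of 27025 genes with a window (4.51%). Genes were partly placed in such lists because earlier work found this element in them, so the share describes the members and tests nothing. Sites of 11 of these members follow as 30 bases read on the strand of the motif, with the element in capitals.
Asns, chr6:7693214-7693243, minus strand: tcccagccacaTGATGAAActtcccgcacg
Nupr1, chr7:126625562-126625591, plus strand: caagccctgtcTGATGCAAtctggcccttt
Trib3, chr2:152344028-152344057, plus strand: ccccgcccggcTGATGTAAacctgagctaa
Slc7a11, first site, chr3:50443661-50443690, minus strand: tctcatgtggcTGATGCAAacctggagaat
Slc7a11, second site, chr3:50443642-50443671, plus strand: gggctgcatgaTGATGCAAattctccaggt
Atf3, chr1:191183425-191183454, plus strand: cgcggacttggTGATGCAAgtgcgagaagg
Chac1, chr2:119351038-119351067, minus strand: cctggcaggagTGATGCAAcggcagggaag
Vldlr, chr19:27216809-27216838, minus strand: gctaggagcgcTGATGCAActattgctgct
Tars, chr15:11399655-11399684, plus strand: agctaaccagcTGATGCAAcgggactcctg
Gars, chr6:55037960-55037989, minus strand: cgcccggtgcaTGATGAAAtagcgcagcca
Iars, chr13:49682126-49682155, minus strand: gcgtctggaggTGATGCAAtactgacagtg
Yars, chr4:129189895-129189924, plus strand: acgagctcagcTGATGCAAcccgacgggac

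Most of the printed sites had the same 8 letters, TGATGCAA, while Asns and Gars had TGATGAAA and Trib3 had TGATGTAA. The element lay 23 to 16 bases before the start of Asns, and 15 to 8 bases before the start of Tars. The sites of Trib3, Iars and Yars lay just inside the transcript. Slc7a11, the cystine importer, held the element on each strand with a short gap between the copies. Its 250 bases before the start, chr3:50443614-50443863 on the minus strand, are shown with both copies in capitals, the second of them as its reverse complement.
Slc7a11 upstream: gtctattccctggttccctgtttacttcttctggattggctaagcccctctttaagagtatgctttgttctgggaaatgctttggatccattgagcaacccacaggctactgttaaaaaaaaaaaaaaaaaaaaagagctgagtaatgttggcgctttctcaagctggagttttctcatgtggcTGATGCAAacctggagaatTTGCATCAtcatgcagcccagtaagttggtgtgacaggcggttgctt
The same stretch of Asns, the enzyme that makes asparagine, is chr6:7693210-7693459 on the minus strand and holds a single copy close to the start.
Asns upstream: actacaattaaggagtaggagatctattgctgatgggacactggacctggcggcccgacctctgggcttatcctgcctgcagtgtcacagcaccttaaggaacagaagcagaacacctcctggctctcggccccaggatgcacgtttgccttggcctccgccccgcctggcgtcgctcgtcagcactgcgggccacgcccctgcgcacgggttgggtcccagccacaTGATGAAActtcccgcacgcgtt
The cAMP response element, searched as TGACGTCA, was in 1 of the 31 member windows, that of Ppp1r15a, and in 2.03% of genes with a window.

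None of the 42 members passed the limma threshold in either direction, beside the 0.73% of all genes tested that did. Values are given below as log2 fold changes with their standard error (SE) from limma. At an unadjusted limma p under 0.05, 2 stress response genes were higher in Prmt5 KO (Ddit4 and Phgdh) and 6 were lower (Ddit3, Nupr1, Trib3, Ppp1r15a, Asns and Cth), while 0 of the 20 synthetases were past it. The same threshold took 4.58% of all genes as higher and 13.6% as lower. edgeR on the recovered reads called 0 members after adjustment. DESeq2, which called 6.95% of all genes, called 2 members: Ddit4 as higher and Ddit3 as lower. With the replicate block limma called 0 members.

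Counted by non-overlap of the libraries, 1 stress response gene (Ddit4) was higher in every Prmt5 KO library than in any Prmt5 fl/fl library, and 7 were lower (Ddit3, Nupr1, Trib3, Ppp1r15a, Asns, Shmt2 and Cth). Among the synthetases 2 were higher (Cars and Tars) and 0 were lower. Over all genes tested 8.3% were higher and 19.9% lower in this sense. The median log2 fold change, Prmt5 KO over Prmt5 fl/fl, was -0.012 over the stress response genes and 0.11 over the synthetases, beside -0.048 over all genes tested. Without Prmt5 fl/fl replicate 3 these medians were 0.053, 0.045 and -0.076. Fold changes were above 0 for 11 and below 0 for 11 of the 22 stress response genes, and above 0 for 13 and below 0 for 7 of the 20 synthetases. The split of the synthetases depended on the scaling: 19 were above 0 after TMM scaling and in edgeR, and all 20 were after median-of-ratios scaling and in DESeq2. As a share of all reads in genes the stress response genes took 0.176%, 0.172% and 0.161% in Prmt5 KO libraries, against 0.166%, 0.159% and 0.162% in Prmt5 fl/fl libraries. The synthetases took 0.458%, 0.451% and 0.419% in Prmt5 KO libraries, against 0.445%, 0.416% and 0.371% in Prmt5 fl/fl libraries. Both sets of shares overlapped between the genotypes.

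**Figure D1:**
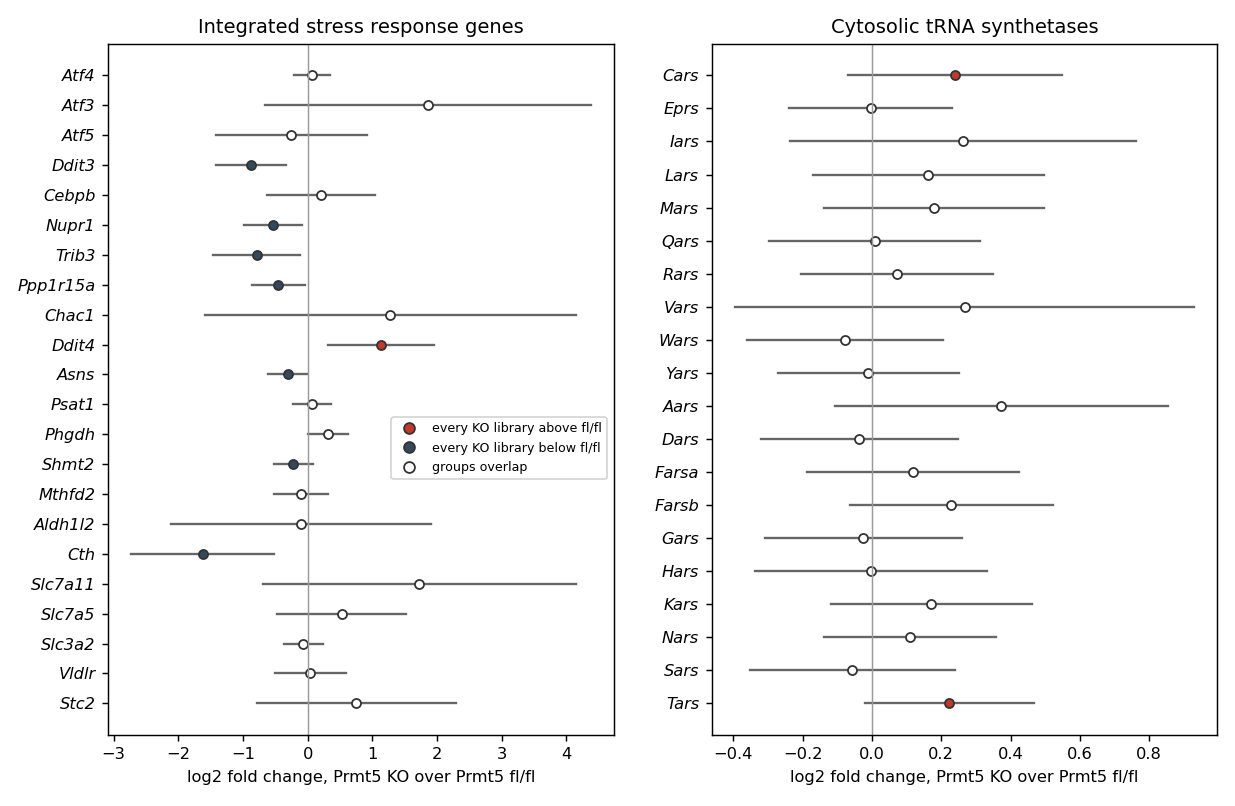
Log2 fold change of each member, Prmt5 KO over Prmt5 fl/fl, with its 95% confidence interval from limma (3 libraries a group) on the x axis; filled points mark members whose groups do not overlap. The synthetases lie between -0.08 and 0.37, while stress response genes run from -1.63 (Cth) to 1.86 (Atf3) with wide intervals for the genes at low counts.

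The plot of fold changes with their intervals shows how differently the members vary. The synthetases lay within a narrow band, from -0.08 (Wars) to 0.37 (Aars) on the log2 scale. The stress response genes ran from -1.63 (Cth) to 1.86 (Atf3), and those farthest from 0 were mostly genes at low counts or genes carried by a single library.

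The transcription factors come first. Atf4, the factor that gives the response its name, was at 5683, 5459 and 6066 scaled counts in Prmt5 KO libraries, against 5487, 5050 and 5884 in Prmt5 fl/fl libraries. The groups overlapped, and the log2 fold change was 0.07 with a 95% interval of -0.21 to 0.35 (limma adjusted p = 0.789). Per kilobase of gene length Atf4 stood at 3318 ± 177 in Prmt5 KO and 3166 ± 241 in Prmt5 fl/fl libraries (SD, n = 3 each). That placed it with Psat1, at 3419 ± 411 and 3244 ± 80.8, from which it did not differ beyond the spread.

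Ddit3 encodes CHOP, the factor that pushes a prolonged stress response toward cell death. It was at 688, 594 and 737 scaled counts in Prmt5 KO libraries, against 1013, 1069 and 1702 in Prmt5 fl/fl libraries. Every Prmt5 KO library was below every Prmt5 fl/fl library, and the highest value was that of Prmt5 fl/fl replicate 3. Its log2 fold change was -0.87 ± 0.23 (SE, limma adjusted p = 0.117). In DESeq2 it was -0.82 (adjusted p = 0.0347). Leaving out Prmt5 fl/fl replicate 3, in which short genes were high, gave -0.63 (limma adjusted p = 0.0684). Ddit3 (chromosome 10, 127290793 to 127296291, GRCm38) overlaps 68 exonic bases of Mars on the other strand. The libraries do not mark strand, so reads in the overlap cannot be told apart. Mars was at 9637, 9876 and 8289 scaled counts in Prmt5 KO libraries, against 9105, 8294 and 7202 in Prmt5 fl/fl libraries, with its lowest value in Prmt5 fl/fl replicate 3, where Ddit3 was highest. Exons of Aars, Aldh1l2, Atf5, Cars, Cebpb, Farsb, Hars, Ppp1r15a, Shmt2 and Yars also overlap annotated neighbours. The overlaps run from 12 bases in Ppp1r15a to 1326 in Aars, so the limit on their values differs in size.

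Nupr1, a small chromatin-associated stress protein, was at 1179, 923 and 855 scaled counts in Prmt5 KO libraries, against 1210, 1402 and 1662 in Prmt5 fl/fl libraries. The groups did not overlap, with Prmt5 KO replicate 1 close under Prmt5 fl/fl replicate 1, and the log2 fold change was -0.53 ± 0.19 (SE, limma adjusted p = 0.207).

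Atf3, an ATF family factor that also answers DNA damage, varied more than most members. It was at 365, 25.7 and 282 scaled counts in Prmt5 KO libraries, against 92.1, 14.0 and 40.2 in Prmt5 fl/fl libraries. Replicate 2 was the lowest library of each genotype, and the groups overlapped. The log2 fold change was 1.86 ± 1.08 (SE, limma adjusted p = 0.407). Cebpb, a partner with which ATF4 can pair on its site, was at 1776, 1915 and 4652 scaled counts in Prmt5 KO libraries, against 2617, 1937 and 2035 in Prmt5 fl/fl libraries. Only Prmt5 KO replicate 3 was high. Without that library the log2 fold change was -0.24, against 0.21 with it. Atf5, a related factor that is also controlled at translation, was low in both groups, at 24.8 to 33.1 scaled counts in Prmt5 KO and 19.1 to 58.0 in Prmt5 fl/fl libraries.

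**Figure D2:**
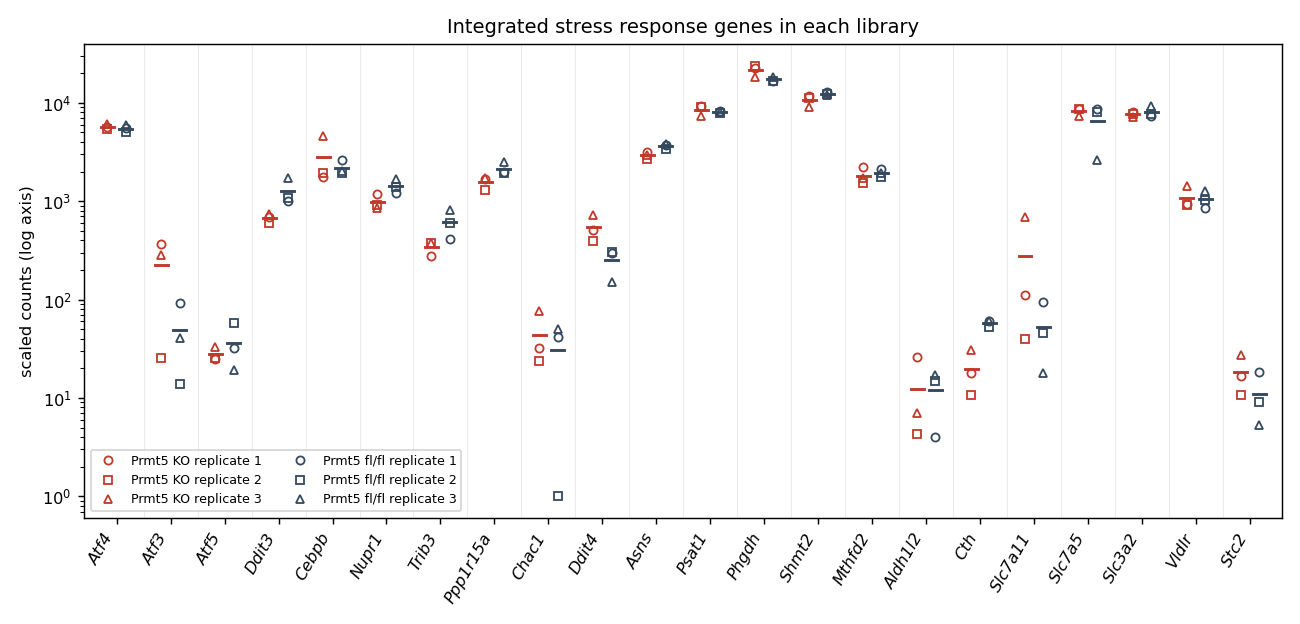
Scaled counts (y axis, log scale) of the 22 integrated stress response genes in each library, Prmt5 KO left of Prmt5 fl/fl for each gene, with the symbol giving the replicate and the bar the mean of 3 libraries. Ddit3, Trib3 and Cth are lower in every Prmt5 KO library, Ddit4 is higher, and Slc7a11 is high in Prmt5 KO replicate 3 only.

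The feedback genes come next, shown with the other stress response genes in the plot of scaled counts by library. Trib3, a pseudokinase that restrains ATF4 and AKT, was at 274, 372 and 379 scaled counts in Prmt5 KO libraries, against 408, 606 and 815 in Prmt5 fl/fl libraries. The groups did not overlap, and Prmt5 fl/fl replicate 3 was again the highest. The difference was -0.79 ± 0.29 on the log2 scale (SE, limma adjusted p = 0.211) and -0.55 without that library.

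Ppp1r15a encodes GADD34, the subunit that directs a phosphatase to eIF2 and so ends the response. It was at 1665, 1314 and 1708 scaled counts in Prmt5 KO libraries, against 1961, 1954 and 2510 in Prmt5 fl/fl libraries. No Prmt5 KO library reached the lowest Prmt5 fl/fl library, and the log2 fold change was -0.45 ± 0.17 (SE, limma adjusted p = 0.228).

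Ddit4, which encodes the mTORC1 inhibitor REDD1, went the other way. It was at 512, 396 and 717 scaled counts in Prmt5 KO libraries, against 296, 307 and 149 in Prmt5 fl/fl libraries. Its groups did not overlap, and the lowest value was that of Prmt5 fl/fl replicate 3. The log2 fold change was 1.14 ± 0.35 (SE, limma adjusted p = 0.158) and 0.80 without that library. DESeq2 gave a log2 fold change of 1.20 (adjusted p = 0.0220). Chac1, an enzyme that breaks down glutathione, was at 31.9, 23.5 and 75.6 scaled counts in Prmt5 KO libraries, against 41.5, 1.00 and 49.8 in Prmt5 fl/fl libraries. Its log2 fold change of 1.28 rested on Prmt5 fl/fl replicate 2, and without that library it was -0.23.

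Per kilobase Phgdh and Shmt2, enzymes of serine and glycine metabolism, had the highest levels of the stress response genes, while the folate enzyme Aldh1l2 had the lowest. Phgdh, which opens the pathway from glucose to serine, was at 22447, 23939 and 18441 scaled counts in Prmt5 KO libraries, against 16788, 16557 and 18481 in Prmt5 fl/fl libraries. Prmt5 KO replicates 1 and 2 were above all Prmt5 fl/fl libraries, and replicate 3 lay just under the highest of them. Its log2 fold change was 0.32 ± 0.13 (SE, limma adjusted p = 0.263). After centring each library within classes of gene length it was 0.51 (limma adjusted p = 0.0490), an alternative chosen after the data were seen. Psat1, the next enzyme of that pathway, was at 9224, 8982 and 7344 scaled counts in Prmt5 KO libraries, against 8257, 7862 and 8126 in Prmt5 fl/fl libraries, and the groups overlapped.

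Shmt2, the mitochondrial enzyme that splits serine into glycine, was at 11630, 11224 and 9136 scaled counts in Prmt5 KO libraries, against 12953, 12298 and 11928 in Prmt5 fl/fl libraries. All Prmt5 KO libraries were lower, with a log2 fold change of -0.22 ± 0.13 (SE, limma adjusted p = 0.404). It was -0.072 with centring by length and -0.12 without Prmt5 KO replicate 3. Mthfd2, which follows it in mitochondrial folate metabolism, was at 2206, 1516 and 1740 scaled counts in Prmt5 KO libraries, against 2134, 1757 and 1934 in Prmt5 fl/fl libraries, with overlapping groups.

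Asns, the asparagine enzyme with the element close to its start, was at 3164, 2693 and 2956 scaled counts in Prmt5 KO libraries, against 3759, 3365 and 3814 in Prmt5 fl/fl libraries. The groups did not overlap, and the log2 fold change was -0.31 ± 0.13 (SE, limma adjusted p = 0.258). With centring by length it was -0.12 (limma adjusted p = 0.529). Cth, which makes cysteine from cystathionine, was at 17.7, 10.7 and 30.7 scaled counts in Prmt5 KO libraries, against 60.7, 53 and 60.4 in Prmt5 fl/fl libraries. Its Prmt5 fl/fl values were close together and all Prmt5 KO values lower. The log2 fold change was -1.63 ± 0.47 (SE, limma adjusted p = 0.139), at a depth of few reads per library. Aldh1l2, a mitochondrial folate enzyme, was near the floor of detection, at 4.28 to 26.0 scaled counts in Prmt5 KO and 4.05 to 16.9 in Prmt5 fl/fl libraries.

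The amino acid transporters are the light and heavy chains of the leucine and cystine carriers. Slc7a11, the cystine carrier with a pair of elements in its promoter, was at 111, 39.6 and 683 scaled counts in Prmt5 KO libraries, against 95.1, 46.0 and 18.0 in Prmt5 fl/fl libraries. Prmt5 KO replicate 3 was the highest library by a wide margin, and the groups otherwise overlapped. The log2 fold change was 1.73 (limma adjusted p = 0.424) and 0.61 without that library. Slc7a5, the leucine carrier LAT1, was at 8734, 8662 and 7330 scaled counts in Prmt5 KO libraries, against 8737, 8102 and 2633 in Prmt5 fl/fl libraries. Only Prmt5 fl/fl replicate 3 was low. Without it the log2 fold change was -0.03, against 0.52 with it. Slc3a2, the heavy chain that both carriers need, was at 8003, 7730 and 7234 scaled counts in Prmt5 KO libraries, against 7332, 7624 and 9205 in Prmt5 fl/fl libraries, and did not separate the genotypes.

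Of the secreted and surface genes, Vldlr, a lipoprotein receptor, was at 936, 908 and 1419 scaled counts in Prmt5 KO libraries, against 849, 1022 and 1270 in Prmt5 fl/fl libraries. Its groups overlapped. Stc2, a secreted glycoprotein, was at 10.7 to 27.2 scaled counts in Prmt5 KO and 5.30 to 18.2 in Prmt5 fl/fl libraries, too few reads to separate the genotypes at this depth.

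**Figure D3:**
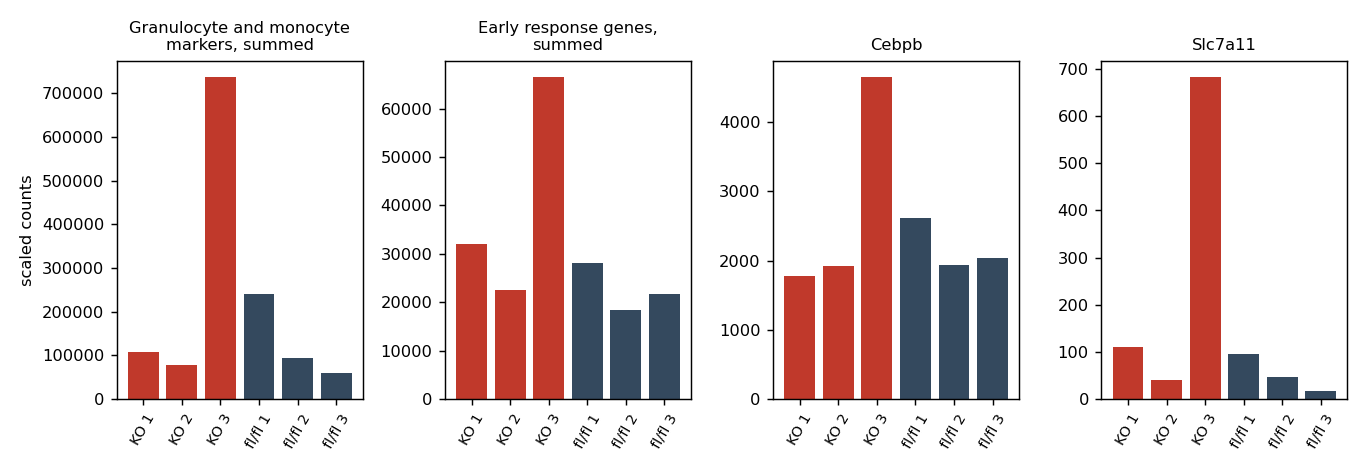
Scaled counts (y axes, from 0) in each library of the summed granulocyte and monocyte markers, the summed early response genes, Cebpb and Slc7a11, with Prmt5 KO libraries left of Prmt5 fl/fl libraries. Prmt5 KO replicate 3 is the highest library in all 4 panels, at 737173, 66517, 4652 and 683 scaled counts.

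The libraries in which Cebpb and Slc7a11 were high also differed in other genes, as the bar plot of marker sums shows. Prmt5 KO replicate 3 held 66517 scaled counts of early response genes, such as Fos and Jun, while the other libraries held 22619 to 32039 in Prmt5 KO and 18350 to 28100 in Prmt5 fl/fl. Its marker sum for granulocytes and monocytes was led by S100a9, at 211095 scaled counts, and Lyz2, at 150277. S100a9 was at 28576 and 18170 in the other Prmt5 KO libraries, and at 2476 to 38708 in Prmt5 fl/fl libraries. Lyz2 was at 25958 and 22366 in the other Prmt5 KO libraries, and at 29843 to 46090 in Prmt5 fl/fl libraries. All 11 markers of this list that passed the filter were detected in every library, and none was called by limma. Ly6g was not analysed here. Whether the marker RNA had a part in the values of Cebpb and Slc7a11 was not tested.

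Sums of megakaryocyte and red cell precursor markers were lower in every Prmt5 KO library than in any Prmt5 fl/fl library. Sums of lymphoid markers and of stroma and endothelium markers overlapped between the genotypes. The sums were not tested. Megakaryocyte and platelet markers summed to 52025 to 76137 scaled counts in Prmt5 KO and 101719 to 123349 in Prmt5 fl/fl libraries. Of 12 such markers 6 were lower in every Prmt5 KO library, beside 19.9% of all genes tested. Limma called 1 of them as lower (Itga2b, the integrin CD41), and 0 with the replicate block. Red cell precursor markers summed to 2047 to 2516 scaled counts in Prmt5 KO and 3188 to 8941 in Prmt5 fl/fl libraries. Hba-a1, Hba-a2, Hbb-bs and Hbb-bt were at 0 in all libraries, and why was not tested. Limma called Klf1, an erythroid transcription factor, as lower. It called 0 red cell markers after TMM, median-of-ratios or quantile scaling or with the replicate block, while DESeq2 called 2 as lower. Lymphoid markers summed to 5667 to 6990 scaled counts in Prmt5 KO and 6477 to 10180 in Prmt5 fl/fl libraries, and markers of stroma and endothelium to 3950 to 5113 and 4536 to 4985. The part of other cell types in the lower values of Ddit3, Trib3, Nupr1 and Asns was not tested.

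The cytosolic tRNA synthetases load amino acids onto tRNAs. None of the 20 averaged under 2527 scaled counts in either genotype. Per kilobase Vars, the valine enzyme, was highest at 8471 ± 443 in Prmt5 KO and 7447 ± 2771 in Prmt5 fl/fl libraries (SD, n = 3 each). Dars, the aspartate enzyme, followed at 5774 ± 550 and 5916 ± 472. Kars and Gars, the lysine and glycine enzymes, came next and did not differ from each other beyond the spread, with Kars at 4808 ± 330 and 4278 ± 429 and Gars at 4421 ± 284 and 4503 ± 428. The lowest was Cars, the cysteine enzyme, at 923 ± 25.4 and 784 ± 87.5, with Qars, the glutamine enzyme, above it at 1400 ± 144 and 1389 ± 79.7.

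**Figure D4:**
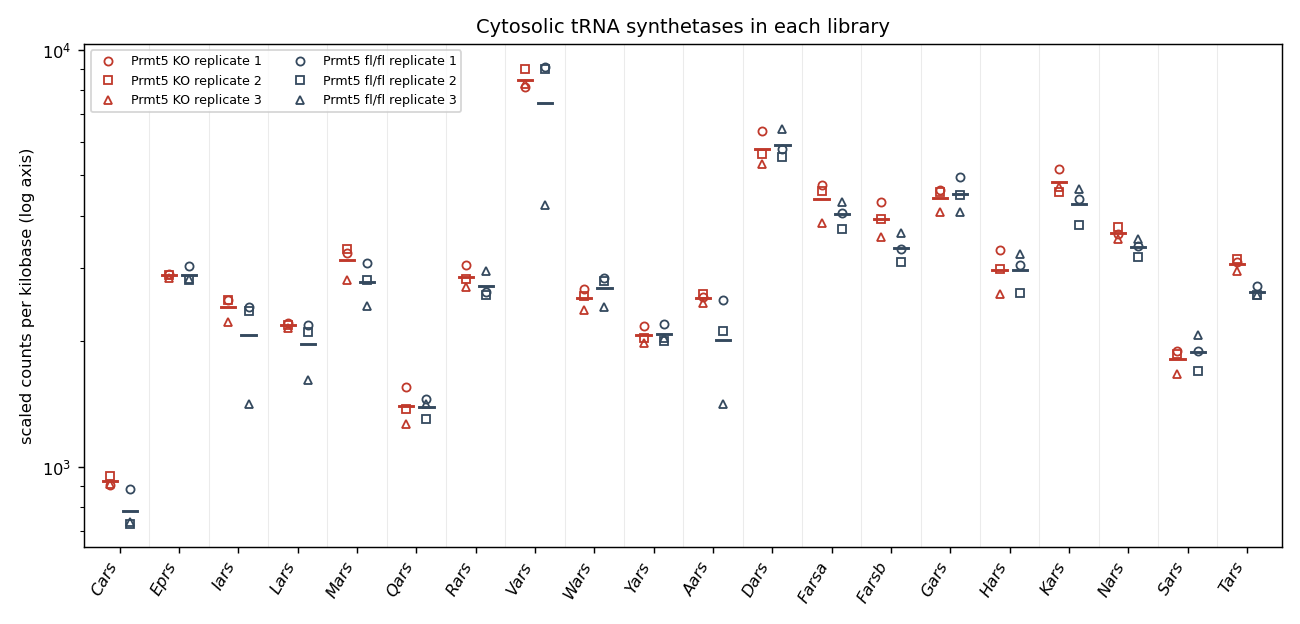
Scaled counts per kilobase (y axis, log scale) of the 20 cytosolic tRNA synthetases in each library, Prmt5 KO left of Prmt5 fl/fl for each gene, with the symbol giving the replicate and the bar the mean of 3 libraries. Vars, Iars and Aars are low in Prmt5 fl/fl replicate 3 (triangles), and Tars is higher in every Prmt5 KO library.

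Of the synthetases only Tars and Cars had groups that did not overlap. Tars, the threonine enzyme with an element close to its start, was at 8164, 8316 and 7788 scaled counts in Prmt5 KO libraries, against 7163, 6810 and 6807 in Prmt5 fl/fl libraries. The log2 fold change was 0.22 ± 0.10 (SE, limma adjusted p = 0.313). Cars was at 2922, 3069 and 2932 scaled counts in Prmt5 KO libraries, against 2852, 2353 and 2376 in Prmt5 fl/fl libraries. Its log2 fold change was 0.24 ± 0.13 (SE, limma adjusted p = 0.385), and its exons overlap a gene on the other strand. Farsb, a subunit of the phenylalanine enzyme, was at 10962, 9952 and 9047 scaled counts in Prmt5 KO libraries, against 8444, 7859 and 9239 in Prmt5 fl/fl libraries. Its groups overlapped through a single pair of libraries.

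The largest fold changes among the synthetases rested on Prmt5 fl/fl replicate 3. Aars, the alanine enzyme, was at 9492, 9642 and 9155 scaled counts in Prmt5 KO libraries, against 9316, 7858 and 5262 in Prmt5 fl/fl libraries. Without replicate 3 of Prmt5 fl/fl its log2 fold change was 0.14, against 0.37 with it. Vars was at 34455, 37921 and 34962 scaled counts in Prmt5 KO libraries, against 38424, 38002 and 17943 in Prmt5 fl/fl libraries, with a log2 fold change of -0.10 without that library and 0.27 with it. Iars, the isoleucine enzyme, was at 11034, 11066 and 9767 scaled counts in Prmt5 KO libraries, against 10641, 10386 and 6234 in Prmt5 fl/fl libraries, with 0.01 without that library and 0.26 with it. Lars, the leucine enzyme, was at 8409, 8347 and 8174 scaled counts in Prmt5 KO libraries, against 8316, 8007 and 6140 in Prmt5 fl/fl libraries, with 0.03 and 0.16.

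**Figure D5:**
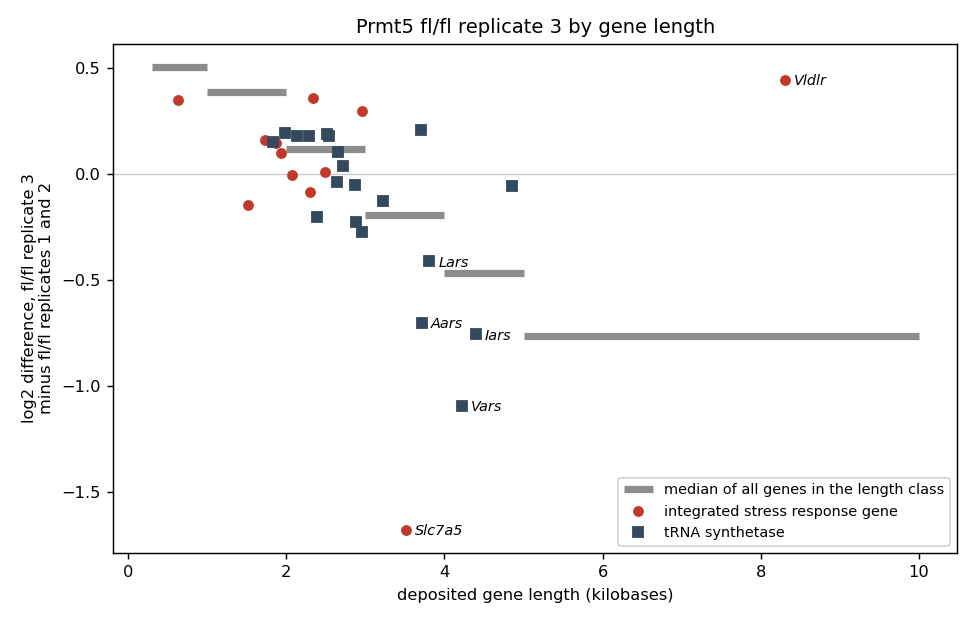
Log2 difference between Prmt5 fl/fl replicate 3 and the other Prmt5 fl/fl libraries (y axis) against the deposited gene length in kilobases (x axis), for members averaging 1000 or more scaled counts, with grey bars for the median of all such genes in each length class; the last class holds every longer gene and its bar is drawn to the edge of the plot. Slc7a5, Vars, Iars and Aars lie at -1.68, -1.09, -0.75 and -0.70, while short members lie near or above 0.

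The plot of that library against gene length sets these members beside all genes of like length. Against the other Prmt5 fl/fl libraries Slc7a5 differed by -1.68 and Vars by -1.09 on the log2 scale, beyond the median of their length classes, -0.19 for genes of 3000 to 4000 bases and -0.47 for genes of 4000 to 5000. Eprs, at 4850 bases, differed by -0.05 in that library, and Vldlr, the second longest member at 8308 bases, was higher in it by 0.45. Members of like length thus differed from each other in that library.

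The remaining synthetases differed little between the genotypes. Eprs, which joins the glutamate and proline enzymes in a single protein, was at 14085, 14001 and 13784 scaled counts in Prmt5 KO libraries, against 14735, 13606 and 13649 in Prmt5 fl/fl libraries. It was the steadiest of the 42 members, with a log2 fold change of -0.003 and a 95% interval of -0.24 to 0.23. Gars, the glycine enzyme, was at 10998, 10916 and 9783 scaled counts in Prmt5 KO libraries, against 11811, 10709 and 9768 in Prmt5 fl/fl libraries, and Yars, the tyrosine enzyme, at 6270, 5865 and 5698, against 6339, 5770 and 5850. Dars, Hars, Qars, Sars and Wars, which serve aspartate, histidine, glutamine, serine and tryptophan, had log2 fold changes of -0.08 to 0.008. Rars, Nars, Farsa, Kars and Mars, for arginine, asparagine, phenylalanine, lysine and methionine, had fold changes of 0.07 to 0.18. The 95% intervals of these enzymes spanned 0.

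The synthetases were also taken by structural class. Eprs, which joins the glutamate and proline enzymes, was counted as class I only. The median log2 fold change was 0.12 over the 10 enzymes counted as class I and 0.11 over the 10 counted as class II. It was 0.12 over the 8 enzymes held in the multisynthetase complex and 0.11 over the 12 outside it. Without Prmt5 fl/fl replicate 3 the medians were 0.017 for class I, 0.14 for class II, 0.026 in the complex and 0.10 outside it. The differences between these classes were not tested. The scaffold proteins of that complex, Aimp1, Aimp2 and Eef1e1, had 0 of 3 called by limma, edgeR or DESeq2 and 0 at an unadjusted limma p under 0.05. Aimp1 was at 2577, 2399 and 2129 scaled counts in Prmt5 KO libraries, against 2224, 2244 and 3125 in Prmt5 fl/fl libraries. Aimp2 was at 5239, 4958 and 4131 scaled counts in Prmt5 KO libraries, against 4828, 4503 and 5495 in Prmt5 fl/fl libraries.

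The 11 members with a printed site were on both sides of 0. They are not all members with the element, so their directions are no count over it. Of these 11, Asns, Nupr1 and Trib3 had log2 fold changes below 0 and Atf3, Slc7a11, Iars and Tars above it under every scaling tried. Gars and Yars were below 0 in limma and above it after TMM and median-of-ratios scaling and in edgeR and DESeq2, Vldlr turned below 0 with centring by length, and Chac1 did so without Prmt5 fl/fl replicate 2. None of the 11 was called by limma.

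Upstream of ATF4, 0 of 17 genes of the eIF2 axis were called by limma (0 by edgeR and 0 by DESeq2), and 0 had an unadjusted limma p under 0.05. Eif2s1, the eIF2 subunit that the stress kinases phosphorylate, was at 16389, 13711 and 13567 scaled counts in Prmt5 KO libraries, against 11998, 10928 and 13321 in Prmt5 fl/fl libraries. All Prmt5 KO libraries were higher, and the log2 fold change was 0.27 (limma adjusted p = 0.333). Eif2s3x, another eIF2 subunit, was at 2513, 1904 and 2361 scaled counts in Prmt5 KO libraries, against 1989, 1937 and 1495 in Prmt5 fl/fl libraries. The kinase genes Eif2ak1, Eif2ak2, Eif2ak3 and Eif2ak4, which encode HRI, PKR, PERK and GCN2, had log2 fold changes of -0.012, 0.04, 0.11 and 0.32. Eif2ak3 and Eif2ak4 were low in Prmt5 fl/fl replicate 3, and without it they were at -0.25 and 0.0048. Eif2ak1 was above 0 in edgeR (0.055), in DESeq2 (0.080) and with centring by length (0.12).

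Among 24 tested of 25 other genes known as ATF4 targets, limma called 0, edgeR 0 and DESeq2 4. At an unadjusted limma p under 0.05, 3 were higher (Gdf15, Sesn2 and Slc7a3) and 3 lower (Pycr1, Slc1a5 and Gpt2). Over all genes tested 4.58% were higher and 13.6% lower at that threshold, and DESeq2 called 6.95%. Slc7a3, an amino acid carrier, averaged under 50 scaled counts, and its groups did not overlap. Gdf15, a secreted stress cytokine, was at 630, 216 and 255 scaled counts in Prmt5 KO libraries, against 22.3, 45.0 and 57.2 in Prmt5 fl/fl libraries. Its groups were well apart, with a log2 fold change of 3.05 ± 0.51 (SE, limma adjusted p = 0.0556). Sesn2, a leucine sensor that restrains mTORC1, was at 4099, 2495 and 3767 scaled counts in Prmt5 KO libraries, against 1328, 1486 and 907 in Prmt5 fl/fl libraries. Its log2 fold change was 1.48 ± 0.26 (SE, limma adjusted p = 0.0587). When Prmt5 fl/fl replicate 3 was left out both were past the threshold (limma adjusted p = 0.0340 and 0.0372), and DESeq2 called both with all libraries.

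The genes of that list lower at an unadjusted limma p under 0.05 are enzymes and a carrier of amino acid supply. This description was given after their values were seen. The carrier Slc7a3 of the same list was higher. Pycr1, which makes proline, was at 96.9, 166 and 136 scaled counts in Prmt5 KO libraries, against 346, 267 and 301 in Prmt5 fl/fl libraries, and the groups were apart. Slc1a5, the glutamine carrier, was at 7884, 9226 and 7184 scaled counts in Prmt5 KO libraries, against 11548, 12886 and 11289 in Prmt5 fl/fl libraries, also apart. DESeq2 called both as lower. Gpt2, a mitochondrial alanine transaminase, was at 326, 412 and 411 scaled counts in Prmt5 KO libraries, against 802, 587 and 539 in Prmt5 fl/fl libraries. Fgf21 was at 0 in all libraries.

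Gdf15, Sesn2, Ddit4 and Atf3 are known as targets of p53 as well as of the stress response, so other targets of p53 are given beside them. Of 12 such genes 5 rose in Prmt5 KO by limma (Phlda3, Eda2r, Cdkn1a, Zmat3 and Ccng1), beside 0.73% of all genes tested called in either direction. The median log2 fold change of the 12 was 1.21. This list was drawn up with earlier results of these libraries known, so its direction is no independent evidence. Whether p53 had a part in the values of Gdf15, Sesn2, Ddit4 and Atf3 was not tested. Cdkn1a, the p21 inhibitor of the cell cycle, was at 6182, 3140 and 5684 scaled counts in Prmt5 KO libraries, against 511, 764 and 822 in Prmt5 fl/fl libraries (limma, log2 fold change 2.81, adjusted p = 0.0195). Phlda3, an inhibitor of AKT, was at 3214, 2106 and 2815 scaled counts in Prmt5 KO libraries, against 422, 499 and 420 in Prmt5 fl/fl libraries (limma, log2 fold change 2.58, adjusted p = 0.00564). With the replicate block limma called 0 of the 12, with adjusted p = 0.190 for Cdkn1a and 0.143 for Phlda3.

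The other arms of protein stress were measured with separate lists. Of 17 genes of the endoplasmic reticulum response limma, edgeR and DESeq2 called 0, 0 and 1. At an unadjusted limma p under 0.05, 4 were lower in Prmt5 KO (Hspa5, Pdia6, Sdf2l1 and Herpud1) and 0 were higher. Over all genes tested 13.6% were lower and 4.58% higher at that threshold. With TMM scaling, median-of-ratios scaling or the replicate block only 2 were lower, Sdf2l1 and Herpud1. With quantile normalization 4 were, and without Prmt5 fl/fl replicate 3 there were 6. Sdf2l1, a chaperone cofactor, was at 2303, 2268 and 1692 scaled counts in Prmt5 KO libraries, against 3751, 4219 and 3909 in Prmt5 fl/fl libraries, and the groups were apart. Its log2 fold change was -0.94 ± 0.16 (SE, limma adjusted p = 0.0570), and DESeq2 called it. Herpud1, which helps clear misfolded proteins, was at 4295, 4979 and 4619 scaled counts in Prmt5 KO libraries, against 5862, 6125 and 7134 in Prmt5 fl/fl libraries.

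Among 5 tested genes of mitochondrial protein stress limma called 0, edgeR 0 and DESeq2 1, with 1 (Hspa9) at an unadjusted limma p under 0.05, and Dele1 was not analysed here. Hspa9, the mitochondrial chaperone mortalin, was at 33857, 30539 and 28434 scaled counts in Prmt5 KO libraries, against 24142, 24080 and 22318 in Prmt5 fl/fl libraries. Each Prmt5 KO library was higher, and the log2 fold change was 0.39 (limma adjusted p = 0.133). Hspd1, the chaperone HSP60, was at 32135, 29889 and 25842 scaled counts in Prmt5 KO libraries, against 26011, 23149 and 24239 in Prmt5 fl/fl libraries. The 17 mitochondrial tRNA synthetases had a median log2 fold change of -0.12, with 5 above 0 and 12 below, and 0 called by limma, edgeR or DESeq2. By non-overlap of the libraries 3 were higher and 4 lower, beside 8.3% and 19.9% of all genes tested. At an unadjusted limma p under 0.05, 2 were higher (Aars2 and Lars2) and 0 lower, beside 4.58% and 13.6% of all genes tested. Aars2, the mitochondrial alanine enzyme, was at 2270, 2415 and 2181 scaled counts in Prmt5 KO libraries, against 1759, 1924 and 1094 in Prmt5 fl/fl libraries, with a log2 fold change of 0.56 and of 0.31 without Prmt5 fl/fl replicate 3. Lars2, the mitochondrial leucine enzyme, was at 73426, 62140 and 70028 scaled counts in Prmt5 KO libraries, against 59305, 51659 and 58135 in Prmt5 fl/fl libraries.

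Of 13 early response genes limma called 1, Egr1, an immediate early transcription factor, which rose to 6422, 4859 and 6889 scaled counts in Prmt5 KO libraries, against 2086, 2427 and 2470 in Prmt5 fl/fl libraries (log2 fold change 1.37, adjusted p = 0.0301, and 0.197 with the replicate block). By non-overlap of the libraries 3 of the list were higher (Egr1, Ier2 and Nr4a1) and 1 was lower, the heat shock gene Hspa1b. Over all genes tested 8.3% were higher and 19.9% lower in this sense.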

How the data were processed

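RNA of sorted cells was extracted with Trizol, amplified with SMART-Seq v4 and prepared as Nextera XT libraries, per the labels' protocols; neither kit marks strand. Reads were aligned with STAR and counted with featureCounts on mm10, per the submitters' processing notes; their versions and the gene annotation are not stated there. A single table of 24110 genes was deposited. The column of Prmt5 fl/fl replicate 2 holds read counts as deposited. The other deposited columns hold a signal, the count scaled to the total of that library (44704636); undoing the factor gave whole reads for 100% of values within 1e-06, which gave the depth. Gene length as deposited (other) was used per kilobase and for length classes. Counts of 37834096 to 44704636 per library make counting error small except for genes at few reads.

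The members and all gene lists were chosen with earlier results of these data known. Genes averaging 10 or more were compared on the log2(value + 1) scale in limma, by its moderated test with the mean-variance trend turned on (two-sided, 4 residual degrees of freedom) and Benjamini-Hochberg adjustment over 14113 genes. The added 1 draws fold changes of low genes toward 0. They were still not always smaller than in edgeR: Chac1 was at 1.28 in limma and 0.58 in edgeR, Atf3 at 1.86 and 2.27. Since libraries were separate pools of mice, limma p-values set the genotype difference against the variation among such pools, moderated across genes. Named were all members, of each other list the up to 4 genes past the threshold with the smallest p or otherwise the 2 with the smallest p, the highest markers, and Prmt5; genes outside this rule were named after their values were seen. Title prefixes are shared by 1 library of each genotype and mice were litter-matched, so replicate numbers were taken to pair libraries, although the labels do not explain the prefix; the correlations of deviations within pairs were -0.14, 0.067 and -0.26, and the block leaves 2 residual degrees of freedom. None of the libraries copied another (chi-square over degrees of freedom between pairs, 26.2 to 357). Alternatives were other pseudocounts (0.5 and 5), filters (none and 50), scalings, edgeR and DESeq2 on the recovered reads, no trend, the block, leaving out each library, and centring within deciles of gene length. Limma with and without the block, edgeR and DESeq2 were run on simulated data, and the other alternatives were not. The simulated libraries had the same dispersion for all genes and no outlying library, length effect or pairing. Promoters came from RefSeq on GRCm38.p6 and gene positions from GENCODE M21 on GRCm38/mm10, with Ddit3 from RefSeq. Some promoter sequence is not reported here. Python 3.11.15, pandas 2.3.3, matplotlib 3.10.9, R 4.3.3, DESeq2 1.42.0, edgeR 4.0.16 and limma 3.58.1 were used.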

Additional observations from a re-analysis of the deposited data

How the results depend on the processing

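Of 751 pairs of a member and an alternative, 684 kept the direction of the fold change and 67 turned it, in 17 members; 25 members kept it in all 18 alternatives. The count of all genes past the threshold, 103 in limma, was 67 with TMM scaling, 57 with median-of-ratios scaling, 64 with quantile normalization, 60 in edgeR, 981 in DESeq2, 1 with the replicate block and 439 with centring by length. Leaving out a library gave 3 to 378: 3 without Prmt5 KO replicate 1, 19 without Prmt5 KO replicate 2, 3 without Prmt5 KO replicate 3, 7 without Prmt5 fl/fl replicate 1, 6 without Prmt5 fl/fl replicate 2 and 378 without Prmt5 fl/fl replicate 3. Stress response genes called were 0 in limma, 2 in DESeq2 and 1 with centring by length. Their median log2 fold change moved to 0.12 in edgeR and 0.14 in DESeq2. The median of the synthetases was 0.20 with median-of-ratios scaling and in DESeq2, 0.23 with centring by length and 0.095 with quantile normalization, against 0.11 in limma. Leaving out a library gave 0.045 (without Prmt5 fl/fl replicate 3) to 0.15 for the synthetases and -0.067 to 0.065 for the stress response genes. Limma called 0 members with and without the replicate block, which leaves 2 residual degrees of freedom, so this says nothing on their stability. The causes of these moves were not tested.

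Log2 fold changes of members and of other genes named by the rule that turned sign were as follows. With centring by length Mthfd2 was at 0.046, Slc3a2 0.020, Vldlr -0.12, Wars 0.010, Yars 0.077, Dars 0.094, Gars 0.11, Hars 0.15, Aimp1 0.12 and Aimp2 0.14. With quantile normalization Aldh1l2 was at 0.15. In edgeR Aldh1l2 was at 0.12, Eprs 0.059, Yars 0.053, Dars 0.028, Gars 0.035, Hars 0.060, Sars 0.0031 and Aimp2 0.013. In DESeq2 Aldh1l2 was at 0.14, Slc3a2 0.013, Eprs 0.083, Wars 0.0076, Yars 0.077, Dars 0.052, Gars 0.060, Hars 0.084, Sars 0.027 and Aimp2 0.036. With median-of-ratios scaling Slc3a2 was at 0.020, Eprs 0.084, Wars 0.010, Yars 0.077, Dars 0.051, Gars 0.063, Hars 0.084, Sars 0.031, Aimp1 0.0056 and Aimp2 0.035. With TMM scaling Eprs was at 0.057, Yars 0.050, Dars 0.024, Gars 0.035, Hars 0.057, Sars 0.0034 and Aimp2 0.0082.

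Leaving out each library in turn gave ranges across 0 for Atf5 (-0.63 to 0.14), Cebpb (-0.24 to 0.46), Chac1 (-0.23 to 2.10), Mthfd2 (-0.25 to 0.018), Aldh1l2 (-0.79 to 0.39), Slc7a5 (-0.034 to 0.83), Slc3a2 (-0.13 to 0.033), Vldlr (-0.16 to 0.19), Eprs (-0.023 to 0.034), Qars (-0.070 to 0.076), Vars (-0.096 to 0.45), Yars (-0.049 to 0.032), Dars (-0.11 to 0.027), Gars (-0.092 to 0.045), Hars (-0.090 to 0.088), Sars (-0.13 to 0.013), Aimp1 (-0.17 to 0.080) and Aimp2 (-0.12 to 0.049). Depth limits Aldh1l2, Stc2, Cth, Atf5 and Chac1, which had few reads per library.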
